A study of Glycine max with 12 samples.

Results

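The genes described here are a pair of STOP1-like genes, LOC100804910 and LOC100801536, and the ALS3-like gene LOC100802735 of soybean (Glycine max). They were found by their symbols in the deposited array annotation, where each has 1 probe set, so 3 probe sets of the 75990 on the array were followed. Root RNA was measured on 12 Affymetrix arrays. The Al-tolerant variety KF and the Al-sensitive variety Guangfengmaliaodu, written GF in the labels, were each sampled after 6, 12 and 24 h with 25 µM AlCl3 and after the same times without AlCl3. All 12 groups, the controls included, were seedlings germinated in sand for 3 days and then placed in 0.5 mM CaCl2 at pH 4.3, so the controls were also in acid solution. Whole roots were taken, and fewer cells of a type cannot be told apart from less RNA per cell. Each of the 12 groups has 1 array and no condition was repeated. A log2 ratio with an error below is the mean over pairs of arrays of equal variety and time, the error is the standard error given by limma, and the spread behind it is the variation of the effect between pairs.

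In Arabidopsis, STOP1 (SENSITIVE TO PROTON RHIZOTOXICITY) is a zinc finger transcription factor needed for root growth in acid soil and in the presence of aluminium ions. It acts by switching on genes for malate and citrate exporters, for ALS3 and for enzymes that buffer cell pH, and much of its own control is known to lie at the level of the protein. ALS3 (ALUMINUM SENSITIVE) is the membrane part of a bacterial-type ABC transporter, which works with the ATP-binding protein STAR1 and is thought to move aluminium away from sensitive tissue. The roles of the soybean genes are read from this likeness to Arabidopsis.

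Array-wide, the median log2 intensity of the main probe sets was between 1.67 and 1.70 in all 12 arrays. The mean of the positive control probe sets was lower in the Al array than in the control array of each of the 6 pairs, by a log2 difference between −0.25 and −1.004, widest in KF at 24 h, and its part in the results was not tested. That pair also held the largest share of probe sets past a 2-fold change, with 11.3% of the 49646 tested at least 2-fold higher, against 3.64% in the KF 6 h pair. As a check of tissue, 1 of 38 probe sets for chlorophyll-binding proteins and the small RuBisCO subunit exceeded the background level (the 95th percentile of 23 background probe sets on that array) in each array. Between 5 and 12 of 65 probe sets for Casparian strip and CASP-like proteins did so. Casparian strip proteins mark root endodermis, and the list is wider than these. The summed intensity of the 65 was 1095.0, 1456 and 668 after 6, 12 and 24 h in KF roots with Al, against 1271, 971 and 972 in KF control roots. In GF roots with Al it was 1356, 1619 and 932, against 987, 965 and 1058 in GF control roots. With Al the sum was thus highest at 12 h and lowest at 24 h in both varieties, as were the Al values of LOC100804910 and LOC100802735, and the part of this in their results was not tested. The median intensity of the 65 with Al did not keep this order. After 6, 12 and 24 h it was 3.08, 3.67 and 3.12 in KF, and 3.65, 3.62 and 3.13 in GF.

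All 3 genes had higher signal with Al than without it in 6 of 6 pairs, and all 3 passed the test over both varieties, where 7.3% of the 49646 tested probe sets were called higher and 8.11% lower. Of all tested probe sets 10.7% were higher with Al in 6 of 6 pairs. The mean rise was 2.87-fold for LOC100804910, 1.999-fold for LOC100801536 and 2.39-fold for LOC100802735. The rises of LOC100804910 and of the ALS3-like LOC100802735 were highest at 12 h and lowest at 24 h in both varieties as deposited, while the ratio of LOC100801536 stayed between 1.51-fold and 2.52-fold. After cyclic loess normalization LOC100802735 in KF was lowest at 6 h instead (log2 ratio 0.73, against 0.999 at 24 h).

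The first STOP1-like gene is LOC100804910 (GLYMA13G39610), whose probe set of 13 probes spans chromosome 13, 40164971 to 40165988, on the minus strand of assembly V1.0. In KF roots with Al its intensity was 43.1, 73.0 and 16.8 after 6, 12 and 24 h, against 21.4, 19.8 and 14.9 in KF control roots. In GF roots with Al it was 54.2, 76.0 and 25.7 after 6, 12 and 24 h, against 14.8, 11.0 and 9.81 in GF control roots. Within each variety every Al array was above all 3 control arrays except the KF 24 h Al array, which lay between the KF controls. How many of all tested probe sets separate in this way was not counted, here and for the genes below. Its intensity was above the background level in 4 of 6 Al arrays and in 0 of 6 control arrays. That level differed between arrays, from 29.3 in the KF 12 h control array to 72.8 in the GF 24 h control array. In the GF 24 h Al array it was 30.2. The log2 ratio of Al over control was 1.52 ± 0.31 over both varieties (n = 6 pairs, adjusted p = 0.0174). With a pseudocount of 16 it was 0.95 (adjusted p = 0.0255). With the controls set to the background level and the Al values kept as deposited, the mean ratio was 1.06-fold. That ratio is not a lower bound, since the 24 h Al arrays of both varieties were themselves below the background level.

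The call of LOC100804910 was lost when the KF 12 h pair (adjusted p = 0.0650), all 6 h arrays (0.0738) or all 12 h arrays (0.131) were left out. Every fit that left out a pair or a time called fewer probe sets in all, 524 to 6753, against 7647 with all arrays. A lost call is thus not particular to the gene. In the exact two-sided sign-flip test over 6 pairs its p was 0.0312, the smallest possible, which 24.9% of all tested probe sets reached, and its adjusted p was 0.126. The same exact p and adjusted p were found for LOC100801536 and LOC100802735.

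The second STOP1-like gene is LOC100801536 (GLYMA20G31650), whose probe set of 22 probes spans chromosome 20, 40256286 to 40257947, on the plus strand. Its intensity in KF roots with Al was 10.6, 10.9 and 10.7 after 6, 12 and 24 h, against 5.36, 4.33 and 5.26 in KF control roots. In GF roots with Al it was 7.91, 12.1 and 8.53 after 6, 12 and 24 h, against 5.22, 5.04 and 4.92 in GF control roots. The 6 Al arrays ran from 7.91 to 12.1 and the 6 control arrays from 4.33 to 5.36. All 12 values lay below the background level. With a pseudocount of 16 the log2 ratio of LOC100801536 was 0.31 (adjusted p = 0.00957), against 0.999 ± 0.13 as deposited (n = 6 pairs, adjusted p = 0.00421). Its call was lost only without the 12 h arrays (unadjusted p = 0.00206, adjusted p = 0.0750) among the 9 fits that left out a pair or a time.

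The ALS3-like gene is LOC100802735 (GLYMA10G05420), whose probe set of 25 probes spans chromosome 10, 4202745 to 4204779, on the minus strand. Its intensity in KF roots with Al was 269.0, 341 and 89.99 after 6, 12 and 24 h, against 168, 73.4 and 80.6 in KF control roots. In GF roots with Al it was 378, 468 and 226 after 6, 12 and 24 h, against 139, 124 and 104 in GF control roots. All 12 values were above the background level. In GF every Al array was above every control array, and in KF the 24 h Al array lay below the 6 h control array. The log2 ratio was 1.26 ± 0.27 (n = 6 pairs, adjusted p = 0.0212). This call was lost in 6 of the 9 fits that left out a pair or a time, with an adjusted p between 0.0512 (GF 6 h pair left out) and 0.156 (all 12 h arrays left out).

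**Figure D1:**
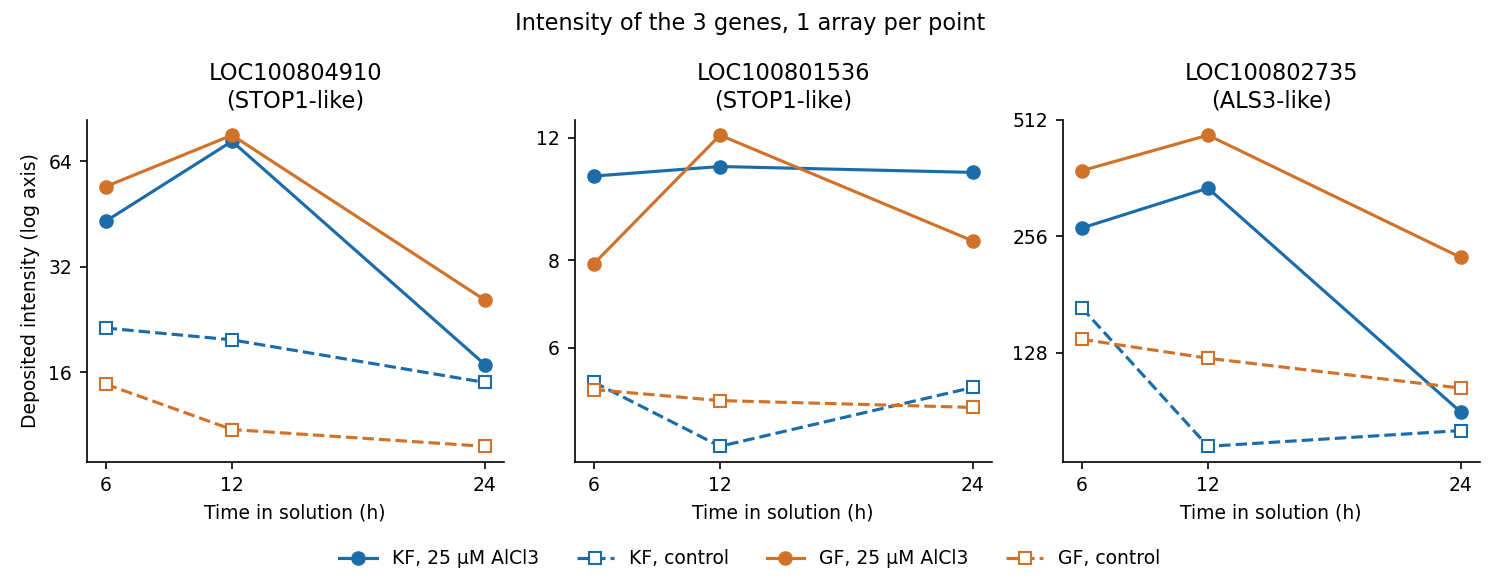
Deposited intensity (log axis) of LOC100804910, LOC100801536 and LOC100802735 against time in solution in h, with KF in blue and GF in orange, 25 µM AlCl3 as filled circles with solid lines and control as open squares with dashed lines, 1 array per point. The Al arrays of LOC100801536 run from 7.91 to 12.1 and its control arrays from 4.33 to 5.36. The KF Al arrays of LOC100804910 and LOC100802735 come down at 24 h to 16.8 and 89.99, against 14.9 and 80.6 in the control arrays.

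Tested by variety, 1 of the 3 genes was called in KF, where 2.78% of the tested probe sets were called higher. LOC100801536 rose in KF by 1.11 ± 0.19 on the log2 scale (n = 3 pairs, adjusted p = 0.0257), a call that was lost when the 6 KF arrays were fitted alone (adjusted p = 0.0982). It was also lost on leaving out the KF pair of 12 h (0.157) or of 24 h (0.0705), all 6 h arrays (0.0887) or all 12 h arrays (0.291). In KF the ratios of LOC100804910 (1.02 ± 0.38, adjusted p = 0.147) and LOC100802735 (1.02 ± 0.39, adjusted p = 0.155) did not pass. Without the 24 h arrays both passed in KF, with ratios of 1.45 for LOC100804910 (adjusted p = 0.0359) and 1.45 for LOC100802735 (adjusted p = 0.0453). In GF 0 of the 3 passed with limma, where 0.719% of all tested probe sets were called higher. All 3 had an unadjusted p under 0.05 there, as did 7667 of the 49646 tested probe sets in either direction. The GF ratios were 2.02 ± 0.38 for LOC100804910 (adjusted p = 0.0754, with 1.22 and 0.149 under a pseudocount of 16), 0.89 ± 0.19 for LOC100801536 (0.103) and 1.49 ± 0.39 for LOC100802735 (0.152). LOC100804910 passed in GF when the KF 24 h pair (2.02, adjusted p = 0.0255) or all 24 h arrays (2.33, adjusted p = 0.0119) were left out. LOC100802735 passed in GF when all 24 h arrays were left out (1.68, adjusted p = 0.0481), and LOC100801536 in the fit with no pair blocks (0.89, adjusted p = 0.0437).

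The time course was followed pair by pair, where the comparison has 2 arrays and no test. For LOC100804910 Al over control was 2.02-fold, 3.69-fold and 1.13-fold after 6, 12 and 24 h in KF, and 3.66-fold, 6.94-fold and 2.62-fold in GF. For the ALS3-like LOC100802735 it was 1.61-fold, 4.65-fold and 1.12-fold in KF, and 2.73-fold, 3.77-fold and 2.18-fold in GF. For LOC100801536 it was 1.97-fold, 2.52-fold and 2.04-fold in KF, and 1.51-fold, 2.40-fold and 1.73-fold in GF. The highest ratio of each gene in each variety was thus at 12 h. Of all tested probe sets 3.64%, 5.75% and 11.3% were at least 2-fold higher in the KF pairs of 6, 12 and 24 h, and 3.33%, 5.02% and 8.76% in the GF pairs. The ratios at 24 h in KF depend on the normalization. After cyclic loess normalization the log2 ratio of LOC100802735 in that pair was 0.999, against 0.16 as deposited, and that of LOC100804910 was 0.57, against 0.17. In the KF 24 h pair cyclic loess moved the median of all tested probe sets by 0.10 and that of the brightest probe sets (the top 10% by mean) by 0.66.

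The difference of the Al effect between times was tested with 3 residual degrees of freedom. Of 24 h minus 6 h, 0 of the 3 genes passed with limma (2.12% of all tested probe sets were called). At an unadjusted p under 0.05 there were 0 of the 3, against 8110 of the 49646 tested probe sets. The estimates were −0.66 for LOC100804910 (95% interval −1.96 to 0.63), 0.12 for LOC100801536 (−0.60 to 0.83) and −0.42 for LOC100802735 (−1.46 to 0.61). The sign turned for LOC100802735 with cyclic loess (0.0635) and without the KF 24 h pair (0.0565), and for LOC100801536 without the GF 6 h pair (−0.0718). The comparison of 24 h with 12 h was added after the values were seen, and 0 of the 3 genes passed there either (1.07% called). The Al effect at 24 h minus that at 12 h was −1.56 ± 0.55 for LOC100804910 (unadjusted p = 0.0248, adjusted p = 0.267) and −1.43 ± 0.44 for LOC100802735 (unadjusted p = 0.0137, adjusted p = 0.211). For LOC100801536 it was −0.39 ± 0.30 (adjusted p = 0.645). Without the GF 24 h pair the 24 h minus 12 h differences of LOC100804910 (−2.17, adjusted p = 0.0456) and LOC100802735 (−1.91, adjusted p = 0.0214) passed.

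Between the varieties LOC100804910 lay on opposite sides with and without Al. In Al-treated roots its intensity in KF over GF was 0.796, 0.961 and 0.654 after 6, 12 and 24 h, so it was lower in KF at 3 of 3 times. In control roots KF over GF was 1.45, 1.80 and 1.52, so it was higher in KF at 3 of 3 times. All 6 of these control values lay below the background level, as did the 24 h Al values of both varieties. How many of all tested probe sets keep their direction at 3 of 3 times was not counted. The variety difference, KF minus GF, was −0.33 ± 0.18 with Al (adjusted p = 0.429) and 0.66 ± 0.18 without Al (unadjusted p = 0.00526, adjusted p = 0.152), and neither passed. With a pseudocount of 16 these differences were −0.21 with Al and 0.32 without Al. The ALS3-like LOC100802735 was lower in KF than in GF at 3 of 3 times with Al, with KF over GF at 0.711, 0.730 and 0.398, and its difference of −0.76 ± 0.25 had an unadjusted p of 0.0133 and an adjusted p of 0.177. In control roots its KF over GF was 1.21, 0.592 and 0.777 (difference −0.28 ± 0.25, adjusted p = 0.688). LOC100801536 differed by 0.20 ± 0.17 with Al (adjusted p = 0.657) and by −0.03 ± 0.17 without Al (adjusted p = 0.969). Of all tested probe sets 2.25% were called between the varieties with Al and 1.26% without Al, and 0 of the 3 genes were called in either comparison with limma. At an unadjusted p under 0.05 there was 1 of 3 in each. Of all 49646 tested probe sets 7751 were under it with Al and 6682 without Al.

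**Figure D2:**
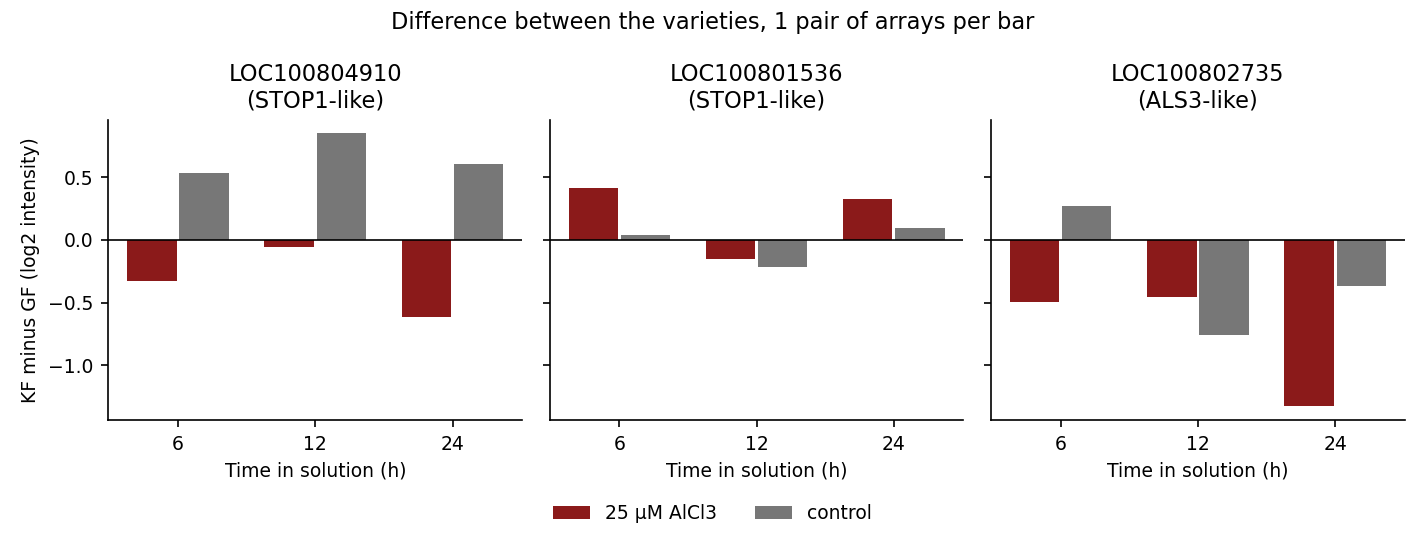
KF minus GF in log2 intensity for LOC100804910, LOC100801536 and LOC100802735 at 6, 12 and 24 h, with 25 µM AlCl3 in dark red and control in grey, 1 pair of arrays per bar. For LOC100804910 the 3 Al bars lie below 0 and the 3 control bars above it, and for LOC100802735 the 3 Al bars lie below 0. The control bars of LOC100804910 compare values below the background level.

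Whether the Al effect itself differed between varieties was tested as KF minus GF. It was −0.996 ± 0.54 for LOC100804910 (95% interval −2.27 to 0.28), 0.23 ± 0.27 for LOC100801536 (−0.41 to 0.87) and −0.48 ± 0.56 for LOC100802735 (−1.78 to 0.83), each with an adjusted p of 0.953. With a pseudocount of 16 the difference for LOC100804910 was −0.53 (adjusted p = 0.931). With limma 0 of the 3 genes and 0.00403% of all tested probe sets were called. At an unadjusted p under 0.05 there were 0 of the 3, against 2200 of the 49646 tested probe sets. By time, the Al effect of LOC100804910 in KF minus that in GF was −0.86 at 6 h, −0.91 at 12 h and −1.22 at 24 h. A fit with blocks of treatment and time, chosen after these values were seen, gave the same −0.996 with an error of 0.26 (unadjusted p = 0.00371, adjusted p = 0.304; 0.0342% of all tested probe sets were called). For LOC100802735 the difference by time was −0.76, 0.30 and −0.96, with a change of sign at 12 h (−0.48 ± 0.35 in the fit with blocks of treatment and time, adjusted p = 0.683).

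The annotation holds 4 further STOP1-like probe sets, so 6 in all, and 4 of the 6 were called higher over both varieties, 0 lower, against 7.3% and 8.11% of all tested probe sets. When a pair or a time was left out, 0 to 4 of the 6 were called higher. Their median log2 ratio was 0.85, against −0.04 over all tested probe sets. The 6 include LOC100804910 and LOC100801536, both called and both chosen with earlier results of these data known. The count and the median are thus not independent of that choice. Of the further probe sets, those of STOP1 and LOC100802769 were called. The gene with the symbol STOP1 (GLYMA10G35940, chromosome 10, 44156325 to 44159117), annotated as a zinc finger protein, had an intensity of 589, 633 and 716 after 6, 12 and 24 h in KF roots with Al, against 358, 312 and 264 in KF control roots. In GF roots with Al it had 535, 522 and 598, against 345, 357 and 295 in GF control roots. The 6 Al arrays ran from 522 to 716 and the 6 control arrays from 264 to 358. The log2 ratio was 0.90 ± 0.15 (n = 6 pairs, adjusted p = 0.00978). The ratio of STOP1 was highest at 24 h, at 2.71-fold in KF and 2.03-fold in GF. In the KF 24 h pair its log2 ratio was 1.44 as deposited and 2.49 after cyclic loess normalization. The STOP1 homolog LOC100802769 (GLYMA12G30285, chromosome 12, 33922659 to 33925164) rose by 0.80 ± 0.21 (adjusted p = 0.0356), a call kept in 2 of the 9 fits that left out a pair or a time (adjusted p up to 0.176 in the others). Its Al over control was 1.02-fold, 1.47-fold and 2.93-fold after 6, 12 and 24 h in KF, and 1.64-fold, 1.79-fold and 2.19-fold in GF, also highest at 24 h.

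The last members of the STOP1-like group did not pass. LOC100809135 (GLYMA11G38080, chromosome 11, 39040072 to 39041276) had a log2 ratio of 0.29 ± 0.21 (adjusted p = 0.379), with 1.98-fold and 2.04-fold in KF at 6 and 12 h, 0.781-fold in KF at 24 h and between 0.892-fold and 1.24-fold in GF. LOC100796506 (GLYMA18G02010, chromosome 18, 1192396 to 1193570) had a log2 ratio of −0.22 ± 0.16 (adjusted p = 0.393) and was lower with Al in 5 of 6 pairs. Both lay below the background level in 12 of 12 arrays. For 24 h minus 6 h of the Al effect, the estimates were 0.55 ± 0.31 for STOP1 (adjusted p = 0.443) and 0.97 ± 0.38 for LOC100802769 (adjusted p = 0.272), so the order of times was not called in these genes.

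The transporter side of the system has 3 probe sets in the annotation, 2 ALS3-like and 1 like the STAR1 partner. Of the 3, 2 were called higher and 0 lower, against 7.3% and 8.11% of all tested probe sets (0 to 3 higher when a pair or a time was left out). The called ones are LOC100791365 and LOC100802735, the latter chosen with earlier results of these data known. The other ALS3-like gene, LOC100814304 (GLYMA03G33290, chromosome 3, 40915223 to 40917512), had an intensity of 107, 102 and 26.1 after 6, 12 and 24 h in KF roots with Al, against 74.4, 57.4 and 59.0 in KF control roots. In GF roots with Al it had 107, 113 and 39.0, against 41.7, 36.7 and 37.9 in GF control roots. It was higher with Al in 5 of 6 pairs, and in the KF 24 h pair it was at 0.443-fold. Its mean log2 ratio of 0.53 ± 0.34 did not pass (adjusted p = 0.326). It passed when the KF 24 h pair (0.88, adjusted p = 0.0432) or all 24 h arrays (1.08, adjusted p = 0.0126) were left out. In the KF 24 h pair its log2 ratio was −1.18 as deposited and −0.57 after cyclic loess normalization. The Al effect of LOC100814304 at 24 h minus that at 12 h was −1.79 ± 0.54 (unadjusted p = 0.0119, adjusted p = 0.199), and its Al effect in KF minus that in GF was −0.83 at 6 h, −0.80 at 12 h and −1.22 at 24 h. The ABC transporter I family member 17-like gene LOC100791365 (GLYMA08G05940, chromosome 8, 4233207 to 4234623), the counterpart of Arabidopsis STAR1, rose by 0.52 ± 0.13 on the log2 scale (adjusted p = 0.0342), and its call was lost in the fit with no pair blocks (adjusted p = 0.0600) and in 7 of the 9 fits that left out a pair or a time (up to 0.262). With Al it had between 536 and 999, against 460 to 560.0 in control arrays, and its ratio was highest at 12 h in both varieties, at 1.74-fold in KF and 1.78-fold in GF. After cyclic loess normalization its log2 ratio in KF was highest at 24 h instead (1.36, against 1.02 at 12 h).

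**Figure D3:**
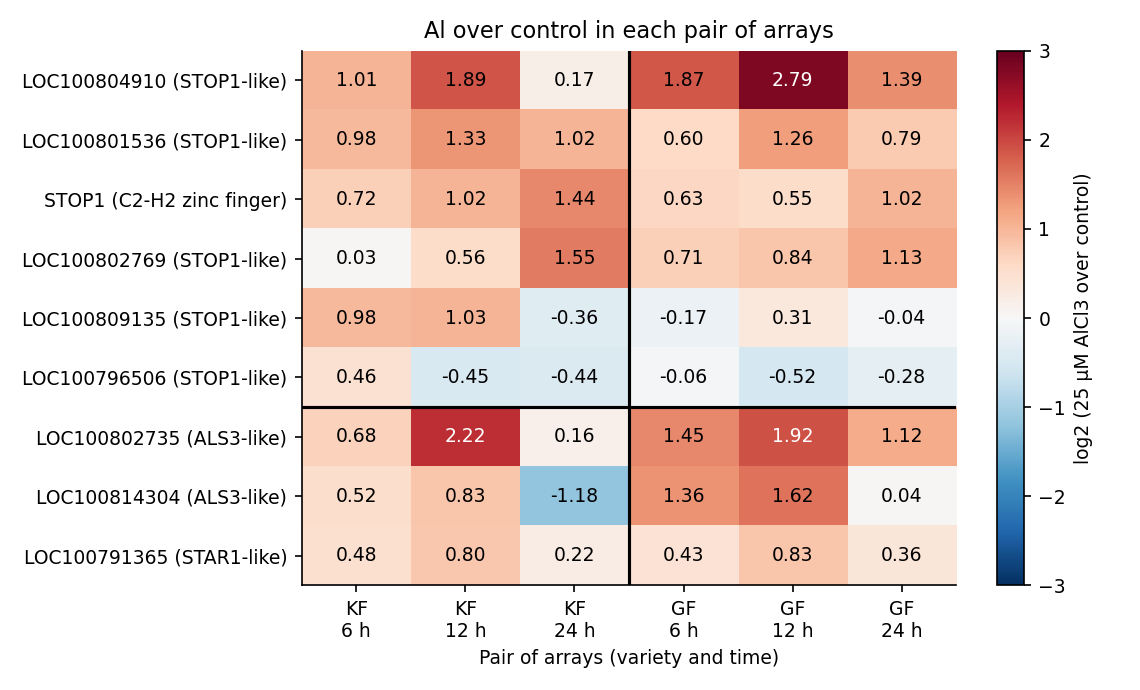
Log2 ratio of 25 µM AlCl3 over control for each STOP1-like, ALS3-like and STAR1-like probe set (rows) in the KF and GF pairs of arrays at 6, 12 and 24 h (columns), as numbers and colours from blue (lower with Al) to red (higher with Al). LOC100804910 and both ALS3-like genes have their lowest ratio as deposited at 24 h in each variety, down to −1.18 for LOC100814304 in KF, while STOP1 and LOC100802769 have their highest there, at 1.44 and 1.55 in KF.

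Other genes of the same pathway were counted in lists built from the annotation text, beside 7.3% of all tested probe sets called higher and 8.11% called lower. Each range of counts below is over the 9 fits that left out a pair or a time. Proteins that act on STOP1 or its targets in Arabidopsis were searched for as calmodulin-binding transcription activators, SUMO enzymes, a THO complex subunit and WRKY46. The search took whole families, so not every hit is known to have this role. Of the 18 tested probe sets found, 5 were called higher (0 to 5) against 7.3% of all tested, and 0 lower. Their median log2 ratio was 0.36. The 4 with the largest called changes were calmodulin-binding transcription activators. LOC100783055 and LOC100798875 are annotated as activator 3-like, LOC100797717 as activator 2-like and LOC100793970 as activator 5-like. LOC100783055 had a log2 ratio of 1.89 ± 0.33 (adjusted p = 0.0106), with an intensity of 7.53 to 37.1 in Al arrays and 3.37 to 5.23 in control arrays, and with a pseudocount of 16 the ratio was 0.69. It was above the background level in 1 of 6 Al arrays and in 0 of 6 control arrays. LOC100798875 was at 1.79 ± 0.34 (adjusted p = 0.0146), LOC100797717 at 1.40 ± 0.21 (adjusted p = 0.00614) and LOC100793970 at 0.80 ± 0.17 (adjusted p = 0.0203), each higher with Al in 6 of 6 pairs. LOC100798875 was above the background level in 6 of 6 Al arrays and 1 of 6 control arrays. LOC100797717 was above it in 3 of 6 Al arrays and LOC100793970 in 2 of 6, and both in 0 of 6 control arrays. With a pseudocount of 16 the ratios of the 3 genes, in this order, were 1.30, 0.76 and 0.47. The SUMO ligase genes SIZ1B (0.58 ± 0.24, adjusted p = 0.135) and SIZ1A (0.44 ± 0.26, adjusted p = 0.285) did not pass.

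Genes named like known targets of STOP1 in Arabidopsis, leaving out Al transporters and organic acid exporters, gave 27 tested probe sets. This search also took whole families, so not every hit is known to be a counterpart of such a target. Of the 27, 9 were called higher (0 to 8) and 1 lower (0 to 2), against 7.3% and 8.11% of all tested. Their median was 0.28. The sulfate transporter 3.5-like gene LOC100779097 rose by 2.23 ± 0.52 (adjusted p = 0.0260), a call that was lost with a pseudocount of 16 (0.80, adjusted p = 0.108). It was above the background level in 1 of 6 Al arrays and 0 of 6 control arrays. Its intensity in KF roots with Al was 15.8, 93.7 and 7.99 after 6, 12 and 24 h, against 2.68, 2.90 and 2.92 in KF control roots, and in GF roots with Al it was 6.15, 16.8 and 4.68, against 3.24, 2.56 and 2.91 in GF control roots. Its highest value in each variety was at 12 h. How many of all tested probe sets had their highest Al value at 12 h was not counted. The NADP-dependent malic enzyme-like gene LOC100801564, whose probes may also match other genes, rose by 1.76 ± 0.42 (adjusted p = 0.0291). It was above the background level in 2 of 6 Al arrays and 0 of 6 control arrays. With a pseudocount of 16 the ratio was 0.93 (adjusted p = 0.0498), and the call was kept in 4 of the 9 fits that left out a pair or a time. The tonoplast dicarboxylate transporter-like gene LOC100802110, whose Arabidopsis relative loads malate into the vacuole, fell by 1.57 on the log2 scale (error 0.34, adjusted p = 0.0211) and was lower with Al in 6 of 6 pairs. Its call was lost in the fit with no pair blocks (adjusted p = 0.0661). The last of the 4 largest called changes, a probe set that carries 2 genes, rose by 1.27 ± 0.19 (adjusted p = 0.00601).

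Among organic acid exporters, of 32 tested MATE probe sets, a family that includes citrate exporters, 3 were called higher (1 to 3) and 1 lower (0 to 2), with a median of 0.00, and these counts are near the 7.3% and 8.11% of all tested. The FRD3-like MATE gene LOC100792203 had a fitted log2 ratio of 5.55 ± 0.37 (adjusted p = 0.000219), and of 3.65 with a pseudocount of 16. It was above the background level in 6 of 6 Al arrays and 0 of 6 control arrays, and with the controls set to that level it was at least 6.79-fold higher with Al. In KF roots with Al it had 355, 446 and 135 after 6, 12 and 24 h, against 20.5, 7.66 and 6.49 in KF control roots. In GF roots with Al it had 255, 356 and 196, against 4.44, 2.77 and 2.92 in GF control roots. Its highest Al value was at 12 h in each variety. The other called MATE genes were LOC100800364 (0.77 ± 0.16, adjusted p = 0.0187, and 0.0787 with no pair blocks), FRD3b (0.54 ± 0.13, adjusted p = 0.0296) and LOC100813142, which fell by 0.98 on the log2 scale (adjusted p = 0.0164). FRD3b and LOC100813142 were below the background level in 12 of 12 arrays, and with a pseudocount of 16 their log2 ratios were 0.11 and −0.27. LOC100800364 was above that level in 2 of 6 Al arrays and 0 of 6 control arrays, and its ratio with this pseudocount was 0.46. ALMT proteins are anion channels, among them ALMT1, the malate channel that STOP1 controls in Arabidopsis. Of 19 tested ALMT probe sets 0 were called higher (0 in each leave-out fit) and 2 lower (0 to 1), with a median of −0.08 and a highest value of 0.34, and these counts are near the 7.3% and 8.11% of all tested. One of the called ALMT probe sets is that of LOC100809994 (ALMT12-like, −1.002 ± 0.24, adjusted p = 0.0303, and −0.27 with a pseudocount of 16) and the other carries 2 genes, LOC100809994 among them. Both lay below the background level in 12 of 12 arrays, as did every other tested ALMT probe set except ALMT13. The probe set with the symbol ALMT1 had 1.888 to 2.896, against a background level of at least 29.3 on each array. For these dim probe sets a missing call cannot tell no change from a change below the background level. ALMT13 had 47.85 to 79.46 and did not pass (−0.02 ± 0.17, adjusted p = 0.952). Of the 28 ALMT probe sets 9 were too dim to be tested.

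ALS1 of Arabidopsis is a half-size ABC transporter of the vacuole membrane. Of 3 probe sets for ABC transporter B family members of that type, LOC100818615, whose probes may also match other genes, rose by 1.11 ± 0.22 (adjusted p = 0.0157), and the other 2 did not pass. The list thus had 1 of 3 called higher (0 to 1), against 7.3% of all tested. Of 21 tested magnesium transporter probe sets 1 was called higher (0 to 1) and 1 lower (0 in each leave-out fit), with a median of 0.03, counts not above the 7.3% and 8.11% of all tested. The riser was the NIPA2-like gene LOC100817349 (1.41 ± 0.28, adjusted p = 0.0164), with an intensity of 111 to 435 in Al arrays and 55.0 to 63.0 in control arrays. The probe set called lower carries 2 genes (−0.67 ± 0.19, adjusted p = 0.0488), and its call was lost with cyclic loess, with no filter and with no pair blocks. Of the called genes named from these lists with 1 gene, LOC100792203 alone kept its call in all 9 fits that left out a pair or a time.

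**Figure D4:**
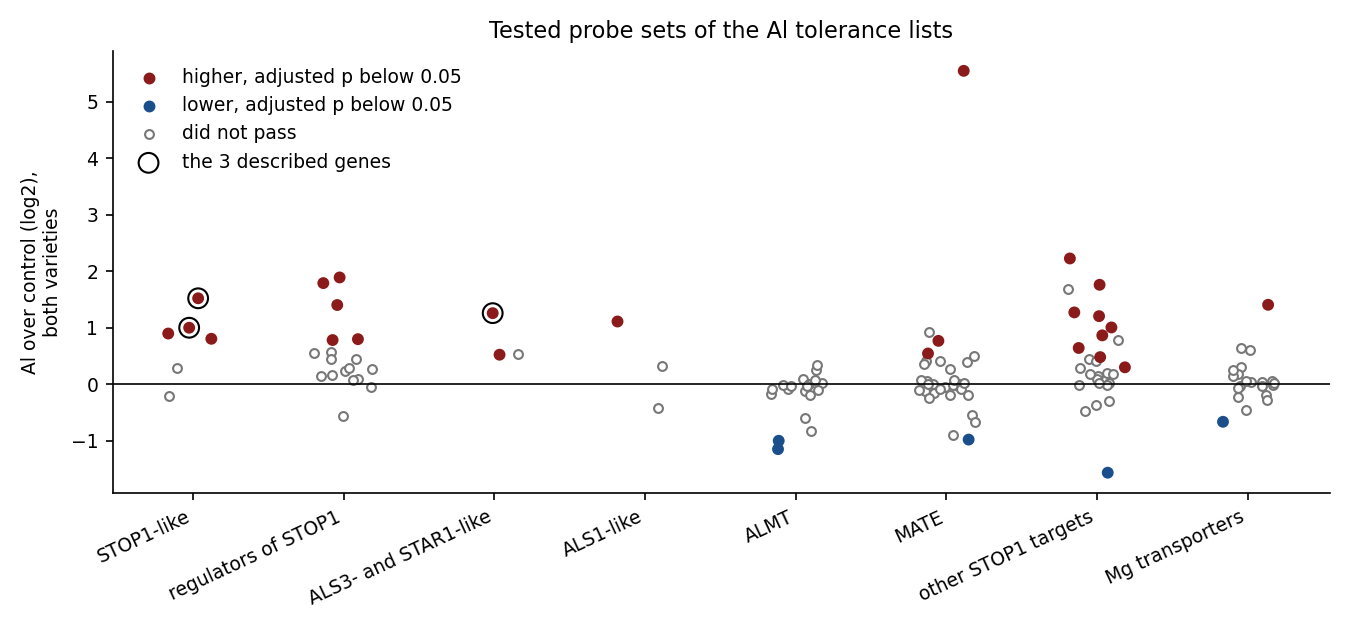
Log2 ratio of Al over control over both varieties (limma) for each tested probe set of the 8 lists, 1 point per probe set, in dark red where called higher, blue where called lower and open grey where not passing, with LOC100804910, LOC100801536 and LOC100802735 ringed. The ALMT list has no point called higher, and its tested probe sets other than ALMT13 lay below the background level in every array. The MATE list has 1 point far above the rest at 5.55, a fitted ratio against control values below the background level.

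Likeness of pattern was described by Pearson's r of log2 intensities over the 12 arrays with 28743 tested probe sets that carry 1 gene; all 12 arrays share the Al contrast, and no test was made. Closest to LOC100804910 were LOC100809339 (TFIID subunit 10-like, r = 0.971), LOC100792103 (MYB3-like transcription factor, 0.967), LOC100792087 (heparanase-like, 0.962), LOC100806507 (squamosa promoter-binding-like, 0.955) and the uncharacterized LOC100809575 (0.955). Closest to LOC100801536 were the uncharacterized genes LOC100527112 (0.980), LOC100305875 (0.975) and LOC100803120 (0.971), the osgep-like gene LOC100791556 (0.970) and the xyloglucan endotransglucosylase gene LOC100807063 (0.969). Closest to the ALS3-like LOC100802735 were LOC100499704 (uncharacterized, 0.967), LOC100812251 (21 kDa protein-like, 0.961), LOC100797993 and LOC100305867 (uncharacterized, 0.958 and 0.954) and the transcription factor gene LOC778182 (MYB160, 0.950). Among the 3 genes themselves, r was 0.879 between LOC100804910 and LOC100802735, 0.766 between the STOP1-like pair and 0.706 between LOC100801536 and LOC100802735. Seen from LOC100804910, LOC100802735 ranked 102 and LOC100801536 ranked 573 of the 28743.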

How the data were processed

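The authors deposited a linear intensity for each probe set on each array. For the summarisation and normalization, no tool is named in any source used here. The linear scale (1.05 to 4010) and the prior normalization (array medians between 3.49 and 3.71) were read from the values. Per the labels' protocols, each array began with 0.1 µg of total RNA. The number and position of probes and the gene text (other columns) come from the deposited annotation, per the file headers, and its positions are those of assembly V1.0. All 75990 identifiers of the value table matched the annotation. A further 24 per-sample columns fit no sample's labels and were left out.

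Log2 values were taken with no pseudocount, and the dimmest 25% of the 66195 main probe sets (mean log2 below 1.12) were left out, which left 49646. Of the main probe sets 33493 carry 1 gene, 2040 several and 30662 none, and 31963 of the first matched the RefSeq gene table (Glycine_max_v4.0, used for names only). Models were fitted with limma 3.58.1 (lmFit, eBayes with trend) in R 4.3.3: the Al effect in blocks of variety and time with 1 coefficient (5 residual degrees of freedom), 1 per variety (4) or 1 per time (3), and the variety difference in blocks of treatment and time (4). P-values were adjusted by Benjamini-Hochberg over all 49646 probe sets and called below 0.05. The number of arrays limits precision. In simulated data with independent noise, 100 genes were shifted by 1 and 100 by 2 (log2), by the same amount at every time. The fit over both varieties called 53% of the former and 89% of the latter, with 10 false calls. For KF minus GF of the Al effect the shares were 3% and 32%, with 0 false calls. Far more probe sets, 7647, were called over both varieties in the data, so these shares may not hold there.

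The members, the lists and their expressions were chosen with earlier results of these data known. Named list genes are the called members with the largest changes, up to 4 a list. The likeness rule takes the 5 highest correlations for each gene. Background is the 95th percentile of 23 antigenomic probe sets on each array. A ratio with the controls set to background raises each control value below that level to it and keeps the Al values (means of log2 values). It is given as an "at least" fold only where every Al array was above that level. Alternatives were cyclic loess normalization, a pseudocount of 16, other filters, no pair blocks, each variety fitted alone and fits that left out a pair or a time. No sequences of these genes were used here.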

Additional observations from a re-analysis of the deposited data

How the results depend on the processing

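Over both varieties the Al effects of LOC100804910, LOC100801536 and LOC100802735 kept their sign and call under cyclic loess, a pseudocount of 16, both other filters and no replicate block. Leaving out a pair or a time gave 1.11 to 1.89 for LOC100804910, 0.85 to 1.10 for LOC100801536 and 0.85 to 1.57 for LOC100802735, and 524 to 6753 called probe sets against 7647. In GF the ranges were 1.63 to 2.33, 0.70 to 1.03 and 1.28 to 1.68, with 0 to 1423 calls against 411, and in KF 0.59 to 1.45, 1.003 to 1.18 and 0.42 to 1.45, with 0 to 3293 calls against 2719. With no replicate block, that is without the pairing of Al and control arrays, LOC100801536 passed in GF (0.89), and 794 probe sets were called in GF, 157 with the pseudocount. With the 6 KF arrays alone LOC100801536 was at 1.11 and did not pass, and 403 probe sets were called.

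For KF minus GF of the Al effect 2 probe sets were called, against 1 with loess, 0 with the pseudocount (2301 at an unadjusted p under 0.05), 4 with no replicate block and 17 with blocks of treatment and time, an alternative chosen after seeing the data. Leave-outs gave 0 to 6, and 0 to 47 in those blocks. For 24 h minus 6 h LOC100802735 reversed to 0.0635 with loess, and leave-outs ran from −0.91 to 0.0565, where it reversed without the KF 24 h pair. LOC100801536 ran from −0.0718 (reversed, without the GF 6 h pair) to 0.31, and the calls from 0 to 6470. For 24 h minus 12 h, also added later, leave-outs gave −1.91 to −0.94 for LOC100802735, −2.17 to −0.95 for LOC100804910 and 0 to 4842 calls. In control roots KF minus GF of LOC100801536 ran from −0.0909 to 0.0655, reversed without the control 12 h pair. Calls between varieties ran from 503 to 1336 with Al and from 124 to 1254 without it. The cause was not tested. With 1 array per condition, p-values measure variation between pairs, which may be technical.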
